A study of Mus musculus with 62 samples.

Results

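Ribosome biogenesis, the assembly of ribosomes in the nucleolus, was followed through 40 named genes across bladder tissue and a bladder cancer cell line of the mouse. The 40 genes were taken by symbol from a fixed list, which was chosen with earlier results of these data known. All 40 were measured in every table, and the tables together share 34126 genes. In this process RNA polymerase I transcribes the ribosomal RNA precursor, small nucleolar ribonucleoproteins of the box C/D and box H/ACA classes modify it, and large protein assemblies fold and cut it into the RNAs of the small and the large subunit. Fast-growing cells make more ribosomes, and growth-factor signalling through the kinases MEK and ERK and the transcription factor MYC are known inputs to the pathway.

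The study holds 62 poly-A RNA samples in 15 groups. Wild-type bladder tumour tissue came from mice given vehicle or rosiglitazone plus trametinib for 5 days (3 and 4 samples) or 1 month (3 and 4 samples), and 3 bladder samples came from wild-type animals without BBN, the nitrosamine carcinogen used to raise such tumours. Names in the deposited data mark all tumour groups as 5MBBN, read here as 5 months of BBN. The vehicle held 0.5% hydroxypropyl methylcellulose, 0.2% Tween 80 and 0.7% DMSO, per the labels. Rosiglitazone activates PPARG, a nuclear receptor, and trametinib inhibits MEK. BBN963, a C57bl/6 wild-type cell line of basal bladder cancer, was treated in a first experiment with DMSO, rosiglitazone, trametinib or the combination for 72 h (5 samples each). A second experiment had DMSO (3 samples at each of 24 h and 72 h), ATRA (all-trans retinoic acid, which activates retinoic acid receptors, with 6 and 5 samples) and the combination (4 samples at each time). BBN963 is a single line, and doses are not given in the sources used here.

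Values are the authors' DESeq2-normalised counts, written as normalised counts below, and changes are log2 differences of group means with their standard error (SE). A gene was called when its limma adjusted p, over all genes tested in the table, was under 0.05. Normalised counts are comparable within a table and not between tables or between genes of different length. Estimated depth was 45.5 to 77.1 M reads (M for mega) per sample in the 1-month tissue, 32.7 to 72.4 M for vehicle and 17.4 to 22.9 M for treated tumours at 5 days, 29.7 to 48.0 M in the first cell experiment and 4.64 to 29.5 M in the second. The labels do not say if replicates are different animals or cultures, so p-values cover the spread among the samples, which may be technical. Since the normalisation sets each library to a common scale, a change of total RNA per cell cannot be seen, and in tissue fewer cells of a type and less RNA per cell cannot be told apart.

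A pair of libraries in the second cell experiment stood apart from their groups. The mean log2 level of the 40 genes was 9.18 in the library labelled ATRA 72 h replicate 1 against 10.05 to 10.12 in the other 4 of its group, and 9.26 in ATRA 24 h replicate 6 against 9.504 to 9.576 in the other 5. Over 14014 genes these libraries differed from each other by a mean of 0.279 log2 units. The library labelled ATRA 72 h replicate 1 differed from the other ATRA 72 h libraries by 0.515 to 0.558 and from the other ATRA 24 h libraries by 0.314 to 0.406. Counts of the 40 genes called for ATRA and for time are therefore given with and without both libraries, a choice made after seeing the data. Other changes and calls on ATRA and on time, also those of Myc and of other gene lists, come from fits with both libraries unless stated otherwise. None of the 12 urothelial markers was at 0 in every library of any tissue group, and the same held for the markers of the other cell types. This does not check the labels of treatment or time. In the second cell experiment the epithelial genes Epcam (1629 to 2889 normalised counts over all libraries) and Krt7 (3901 to 10102) were present in every library. There 4 of the 12 markers did not pass the filter on low values. These were the basal keratin gene Krt5 (0 to 2.03), the basal factor gene Trp63 (0 to 9.24) and the uroplakin genes Upk1b (0 to 3.23) and Upk3a (0 to 1.10). Another basal keratin gene, Krt14, ranged from 23.7 to 404. The word basal for this line was not taken from these values, and Krt5 and Trp63 do not show it. In tissue, vehicle replicate 2 of the 1-month group had the highest mean level of the 40 genes in its table, 12.04 against 11.56 and 11.68.

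**Figure D1:**
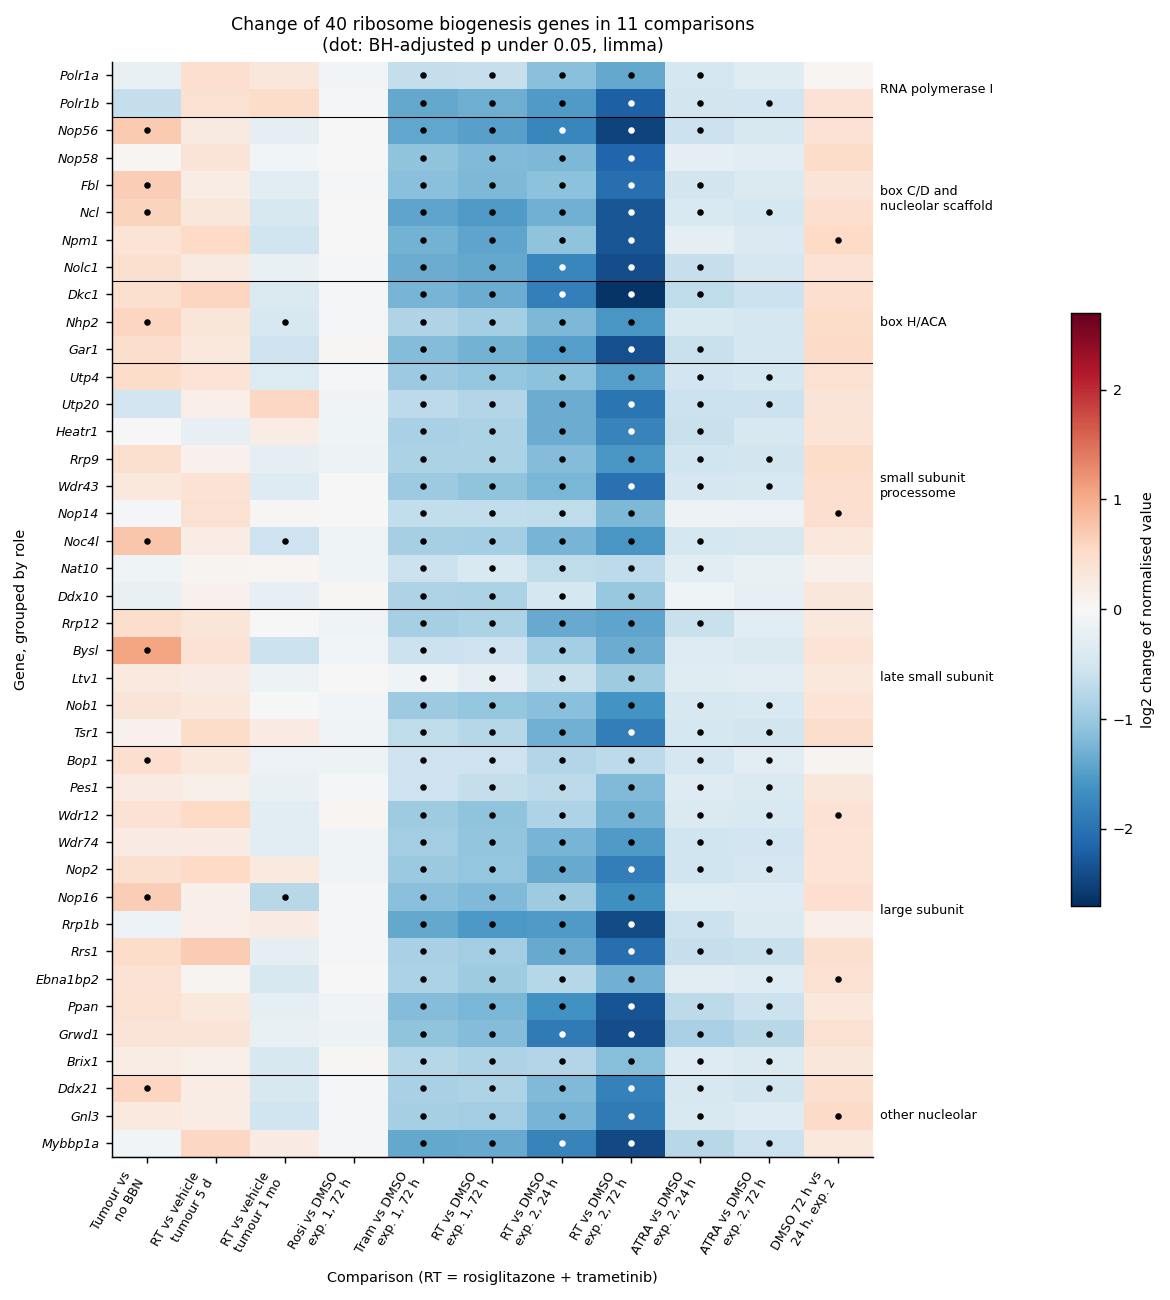
The heat map gives the log2 change of each of the 40 genes (rows, grouped by role) in 11 comparisons (columns), with blue for lower and red for higher and a dot where the limma adjusted p was under 0.05. The 4 columns of trametinib and of the combination in cells are blue and dotted in all 40 rows, the rosiglitazone column has no dot, and the tissue columns hold 9 dots (tumour), 0 (5 days) and 3 (1 month).

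The first question was what each drug did to these genes in BBN963 cells at 72 h. With trametinib all 40 genes fell, by a median of 0.92 on the log2 scale. The groups did not overlap for 39 of them, a count with no share over all genes beside it. Over all 14414 genes tested, 71.1% were called and 35.3% were called lower, with a median change of 0.01. The combination also lowered all 40 genes, with a median of -0.996, a range of -1.54 (Rrp1b) to -0.26 (Ltv1) and no overlap between groups for any of them. Of the 14220 genes tested against the combination, 72.5% were called and 36.2% were called lower. Rosiglitazone alone gave no call among the 40, where 0% of the 14218 genes tested were called. The median of the 40 under rosiglitazone was -0.05, the largest fall was -0.14 (Rrp9), and 4 genes had an unadjusted p under 0.05. Both sets of changes under trametinib and the combination were measured against the same 5 DMSO samples.

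By role, the median fall under trametinib was largest for the box C/D and scaffold genes, at -1.31. Nop56 (chromosome 2, 130274430 to 130279313 on GRCm38), a core protein of box C/D particles, had 18381, 18487, 17201, 22646 and 18733 normalised counts with DMSO. With trametinib it had 7347, 7263, 7033, 7189.8 and 6944, a change of -1.41 ± 0.06 (SE) (adjusted p = 5.18e-11), so each treated sample lay below each control sample. The 6 genes of the box C/D particles and the nucleolar scaffold had changes of -1.42 to -1.09. They include Fbl (chromosome 7, 28169710 to 28179269), the methyltransferase of these particles, at -1.13 ± 0.07, nucleolin (Ncl) at -1.42 ± 0.06, and nucleophosmin (Npm1, chromosome 11, 33152287 to 33163206) at -1.27 ± 0.05. Npm1 had 143316, 132417, 131318, 155394 and 134929 normalised counts under DMSO and 59066, 59104, 58198, 57169.6 and 55122 under trametinib. For both polymerase I subunits in the list the changes differed in size. Polr1b (chromosome 2, 129100995 to 129126594) had 2740.1, 2596, 2513, 2430.0 and 2732 normalised counts with DMSO and 984, 985, 937, 1003 and 1047 with trametinib. Its change of -1.39 ± 0.05 (SE) (adjusted p = 7.26e-12) had the lowest adjusted p of the 40, whereas Polr1a, the largest subunit, changed by -0.65 ± 0.05.

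In the box H/ACA particles, which convert uridine to pseudouridine, Dkc1 (chromosome X, 75095854 to 75109777) encodes the enzyme dyskerin. Dkc1 had 6884, 6767, 6437, 6438 and 6425 normalised counts with DMSO and 2927, 3029, 2631, 2794 and 2541 with trametinib, a change of -1.25 ± 0.05 (SE) (adjusted p = 3.03e-11). Its partners Gar1 and Nhp2 changed by -1.17 ± 0.09 and -0.81 ± 0.09. The 9 genes of the small subunit processome, the assembly that first packs and cuts the small-subunit precursor, had changes of -0.99 to -0.57. Utp20 (chromosome 10, 88746607 to 88826804) had 4045, 4553, 4251, 4903 and 4430.1 with DMSO and 2575, 2684, 2582, 2812 and 2849 with trametinib. Heatr1 (chromosome 13, 12395027 to 12440289) had 3607, 4127, 3383, 4391 and 3388 and 2120.1, 2144, 2153, 2001 and 1855, and for both genes the treated samples lay below all controls. Wdr43 and Utp4 stood at the far end of this group, with -0.99 ± 0.05 and -0.98 ± 0.04 (adjusted p = 1.8e-11). Utp4 had 5044, 5064, 4903, 5464 and 5171 with DMSO and 2597, 2596, 2586, 2572 and 2619 with trametinib, again with no overlap.

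Genes of late small subunit maturation, whose products act in the last steps before the subunit can translate, held the smallest change. Ltv1, an export factor of the pre-small subunit, had 2364, 2278, 2323, 2515 and 2431 normalised counts with DMSO and 2346, 2133, 2176, 2169.5 and 2238 with trametinib. The Ltv1 groups overlapped, and its change was -0.11 ± 0.04 (SE) (adjusted p = 0.0369). Nob1 (chromosome 8, 107412486 to 107425051), the nuclease that makes the final cut of the small-subunit RNA, changed by -0.97 ± 0.07, from 2556, 2327, 2128, 2827 and 2489 to 1313, 1287, 1238, 1239.8 and 1178. For Nob1 no treated sample reached a control sample.

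The 12 large subunit genes changed by -1.38 to -0.56. Bop1 (chromosome 15, 76452989 to 76477277), Pes1 and Wdr12 encode 1 complex that is needed for the large-subunit RNA, and they changed by -0.56 ± 0.05, -0.56 ± 0.04 and -0.95 ± 0.06. Bop1 had 3861, 3588, 3576, 4337 and 3972 with DMSO and 2678, 2526, 2532, 2736 and 2632 with trametinib. Rrs1 (chromosome 1, 9545408 to 9547455), which helps load the small ribosomal RNA of the large subunit, changed by -0.89 ± 0.05, from 3642, 3253, 3211, 3833 and 3609 to 1938, 1945, 1830.0, 1842 and 1925. The largest change among large subunit genes was that of Rrp1b, at -1.38 ± 0.05 (adjusted p = 2.62e-11). Mybbp1a (chromosome 11, 72441355 to 72451768), a nucleolar protein that also binds transcription factors, fell from 15489.5, 14752, 13785, 19924 and 15802 to 6238, 6529, 5958, 6048 and 5771, by 1.37 ± 0.08. The groups of Bop1, Rrs1 and Mybbp1a did not overlap.

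Under the combination the genes with the lowest adjusted p were Dkc1, Rrp1b and Npm1. Dkc1 had 6205, 6097, 5801, 5811 and 5802 normalised counts with DMSO and 2389, 2293, 2306, 2280.1 and 2388 with the combination, and changed by -1.35 ± 0.04 (SE) (adjusted p = 8.79e-13). Rrp1b, a nucleolar protein of large subunit assembly, had 2582, 2781, 2661, 2502 and 2685 with DMSO and 998, 898, 904, 891 and 847 with the combination, and changed by -1.54 ± 0.05 (adjusted p = 5.79e-12). Npm1 had 131851, 121770.0, 120783, 143172 and 124368 with DMSO and 48929, 47922, 45711, 46128 and 49032 with the combination, and changed by -1.43 ± 0.05 (adjusted p = 6.81e-12). All treated samples of these 3 genes lay below all controls. Set side by side, the combination and trametinib alone gave -1.47 and -1.41 for Nop56, -1.33 and -1.39 for Polr1b, -1.35 and -1.25 for Dkc1, and -0.55 and -0.56 for Bop1. Both are measured against shared controls in separately normalised tables, and their difference was not tested.

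**Figure D2:**
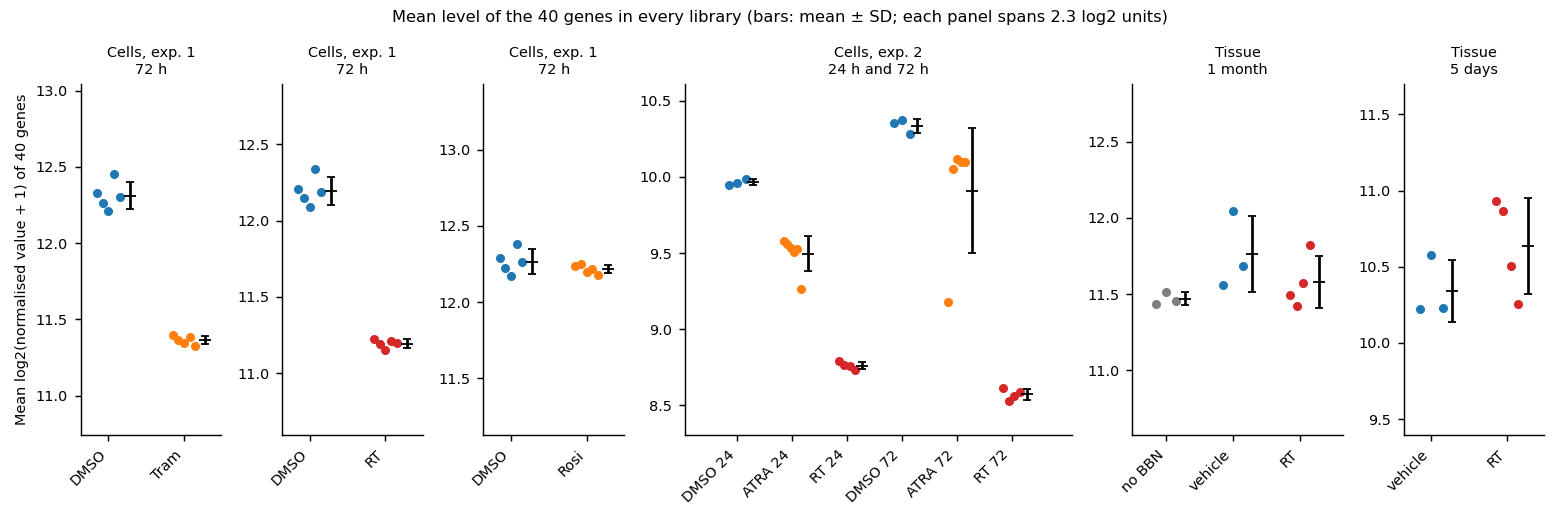
Each point is the mean log2(normalised value + 1) of the 40 genes in 1 library, with the mean and SD of each group beside it, for the 3 tables of the first cell experiment, the second cell experiment, and the tissue at 1 month and 5 days; every panel spans the same height, and levels cannot be compared between panels. In cells the trametinib and combination groups lie below all DMSO libraries, 1 ATRA library lies far below the other 4 at 72 h, and in tissue the vehicle and treated groups overlap.

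The second experiment followed the combination at 24 h and 72 h. All 40 genes fell at both times, with no overlap between treated and DMSO libraries for any gene, again without the share over all genes. The median change was -1.22 at 24 h, where 54.9% of 14014 genes were called and 27.2% were called lower, and -1.82 at 72 h, where 69.4% were called and 35.1% were called lower. The median of all genes was 0.00 at 24 h and -0.02 at 72 h. As a share of all normalised counts, the 40 genes held 0.834% to 0.872% with DMSO and 0.372% to 0.406% with the combination at 24 h. At 72 h these shares were 1.09% to 1.11% with DMSO and 0.272% to 0.288% with the combination.

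Polr1b had the lowest adjusted p at 24 h. It had 503, 597 and 569.9 normalised counts with DMSO and 170.3, 209, 195 and 192 with the combination at 24 h, a change of -1.53 ± 0.16 (SE) (adjusted p = 4.17e-08). At 72 h it had 729, 729 and 721 with DMSO and 154, 151, 168 and 156 with the combination, a change of -2.20 ± 0.16 (adjusted p = 1.14e-11). The other genes chosen by lowest adjusted p were Rrp1b and Mybbp1a at 24 h and Rrp1b, Npm1 and Ncl at 72 h. Rrp1b had 683, 686 and 680.5 with DMSO and 222, 240.1, 240.0 and 236 with the combination at 24 h, and 782, 772 and 783 and 156, 143, 157 and 129 at 72 h. Its changes were -1.54 ± 0.16 and -2.41 ± 0.16 (adjusted p = 3.15e-12). Mybbp1a had 3208, 3151 and 3236 with DMSO and 930.2, 959, 928 and 862 with the combination at 24 h, and 3889, 3909.6 and 3910.2 and 738, 739.8, 723 and 671 at 72 h. Its changes were -1.80 ± 0.19 and -2.44 ± 0.19, and treated and control libraries stayed apart at both times for all of these genes.

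In the box C/D group, Nop56 had 3656, 3621 and 3548 normalised counts with DMSO and 1151, 1027, 1053 and 1046 with the combination at 24 h. At 72 h Nop56 had 4768, 4916 and 4525 with DMSO and 915, 772, 808 and 875 with the combination. Its changes were -1.76 ± 0.19 and -2.49 ± 0.19, so the treated level at 72 h was 5.63-fold below DMSO. Fbl had 879, 795 and 827 and 407, 362, 379.7 and 401 at 24 h and 1124, 1091 and 984 and 324, 277, 236 and 214 at 72 h, with changes of -1.10 ± 0.15 and -2.03 ± 0.15. Npm1 had 15786, 17709 and 16973 and 8958, 7613, 7589 and 7532 at 24 h and 25118, 25674 and 22502 and 5509.8, 4520.1, 4730.4 and 4856 at 72 h, with changes of -1.09 ± 0.16 and -2.32 ± 0.16. For Npm1 and Fbl every DMSO library was higher, and every treated library lower, at 72 h than at 24 h. Ncl, a nucleolar RNA-binding protein, had 16644, 16865 and 18048 with DMSO and 3376, 3338, 3422 and 3760.4 with the combination at 72 h, a change of -2.31 ± 0.16 (adjusted p = 1.07e-11).

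The largest change of the 40 at 72 h was that of Dkc1. Dkc1 had 1711, 1659 and 1669 normalised counts with DMSO and 280.1, 265, 261 and 257 with the combination at 72 h, a change of -2.66 ± 0.24 (SE) (adjusted p = 1.19e-09), which is 6.31-fold. At 24 h Dkc1 had 1213, 1195 and 1274 and 360.4, 338, 337 and 323. The smallest changes at 72 h were those of Bop1, at -0.71 ± 0.09, Nat10, which acetylates ribosomal RNA, at -0.72 ± 0.09, and Ltv1, at -0.96 ± 0.13. Bop1 had 1067, 1002 and 1046 with DMSO and 654, 597, 580.4 and 580.1 with the combination at 24 h, and 1135, 1136 and 1011 and 637, 645, 691 and 695 at 72 h. Bop1 alone had a larger fall at 24 h than at 72 h. The processome genes Utp20 and Heatr1 changed by -1.98 ± 0.19 and -1.81 ± 0.19 at 72 h. Utp20 went from 1305, 1319 and 1651 to 329, 364, 386 and 361 and Heatr1 from 936, 925 and 1019.8 to 259, 267, 294 and 273. Nob1 had 656, 643 and 532 with DMSO and 196, 206, 196 and 191 with the combination, and Rrs1 had 976, 962 and 924 and 222, 236, 262 and 211, changes of -1.62 ± 0.15 and -2.03 ± 0.18.

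**Figure D3:**
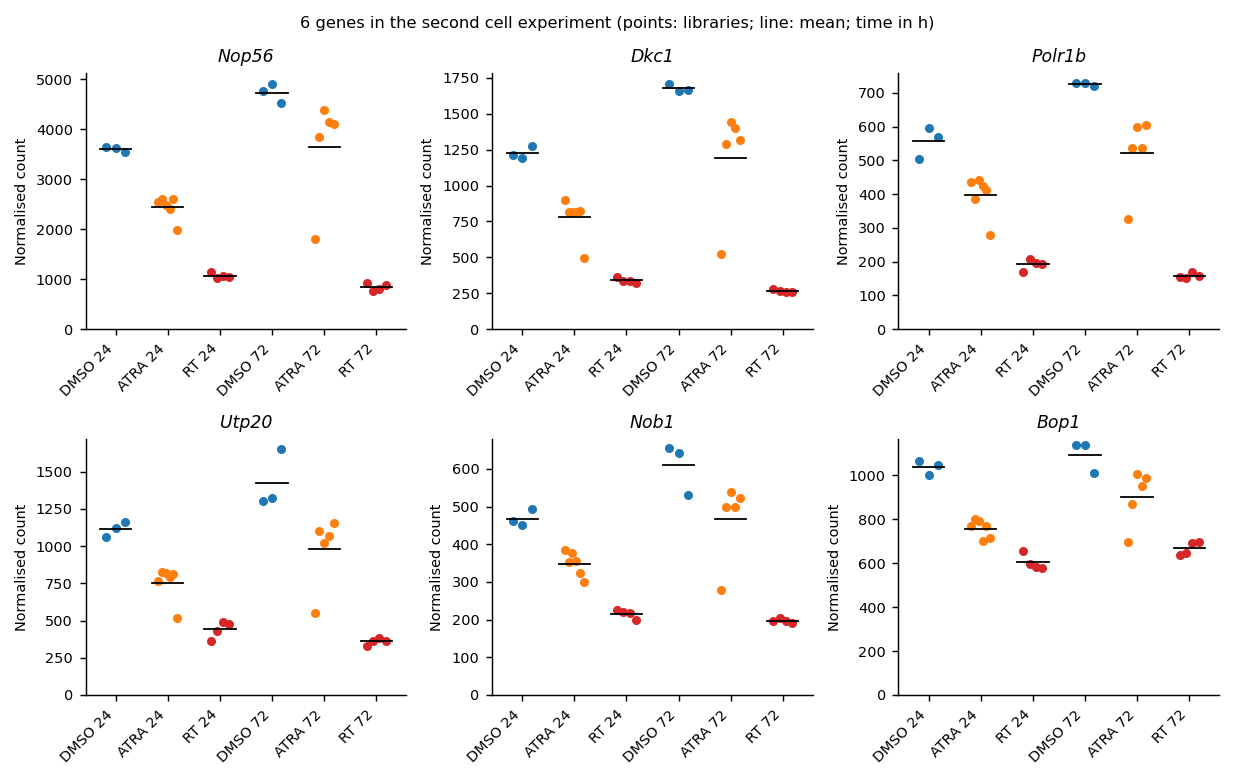
Normalised counts of Nop56, Dkc1, Polr1b, Utp20, Nob1 and Bop1 in every library of the second cell experiment (points) with the group mean (line), for DMSO (blue), ATRA (orange) and the combination (red) at 24 h and 72 h. The combination lies below DMSO at both times in all 6 genes, the DMSO mean is higher at 72 h than at 24 h, and 1 ATRA library at 72 h lies below the other 4.

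Whether the effect of the combination differed between 72 h and 24 h was tested as an interaction. Of the 40 genes, 39 had a more negative change at 72 h, with a median difference of -0.53, and 18 were called, all lower, where 24.6% of all genes were called and 12.7% were called lower. Of the box C/D and scaffold genes 5 of 6 were called, and 6 of 6 without both ATRA libraries that stood apart. With all libraries the lowest adjusted p were those of Npm1, at -1.23 ± 0.22 (SE) (adjusted p = 0.000327), Fbl, at -0.93 ± 0.21 (adjusted p = 0.0024), and Ncl, at -1.01 ± 0.23 (adjusted p = 0.00263). Without both ATRA libraries they were those of Npm1, Nop58 and Ncl. Of the 5 late small subunit genes none was called, and all 5 differences were negative, up to that of Tsr1, a factor of the pre-small subunit, at -0.58 ± 0.23. Without both ATRA libraries 4 of the 5 were called lower, all but Rrp12. The levels behind this difference moved on both sides. Across the 40 genes the DMSO libraries were higher at 72 h than at 24 h by a mean of 0.37, and the treated libraries were lower at 72 h by a mean change of -0.19. All treated 72 h libraries lay below all treated 24 h libraries for 17 genes, and above them for 1, counts with no share over all genes. The number called was 11 with no filter on low values and 34 with only the compared groups fitted. It was also 34 with both ATRA libraries that stood apart left out of the shared fit. In that shared fit 36.6% of all genes were called and 18.7% were called lower. The number of the 40 called was 8 or 10 without DMSO 24 h replicate 1 or 3 and 7 or 8 without DMSO 72 h replicate 1 or 2.

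In the DMSO samples themselves all 40 genes were higher at 72 h than at 24 h, with a median of 0.39. For 38 genes the groups of 3 libraries did not overlap, a count with no share over all genes beside it. Of the 40, 5 passed the test, Nop14, Ebna1bp2, Wdr12, Npm1 and Gnl3, where 13.6% of all genes were called, 5.57% higher and 8.01% lower. Nop14, a processome protein, had 870.1, 927 and 893 at 24 h and 1251, 1207 and 1236 at 72 h, a change of 0.46 ± 0.13 (SE) (adjusted p = 0.0252). Ebna1bp2, a large subunit factor, had 669, 710.2 and 714 and 962, 1026 and 804, a change of 0.41 ± 0.13 (adjusted p = 0.0333). Wdr12 had 501, 576 and 564 and 716, 732 and 689, a change of 0.38 ± 0.12 (adjusted p = 0.0345). In each of these the 3 later libraries lay above the 3 earlier ones. With both ATRA libraries that stood apart left out of the fit, 37 of the 40 were called higher. In that fit 27.7% of all genes were called and 12.9% were called higher. Without single DMSO libraries 0 to 2 of the 40 were called.

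The first and the second experiment share no library, so their changes at 72 h can be compared. Across the 40 genes the changes under the combination had a Pearson r of 0.840 and a Spearman rho of 0.817, as a description of genes that share both treatments and not of independent replicates. All 40 genes had the larger fall in the second experiment, by a median difference of -0.80. The experiments differ in depth and were normalised separately, and the difference in size was not tested.

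**Figure D4:**
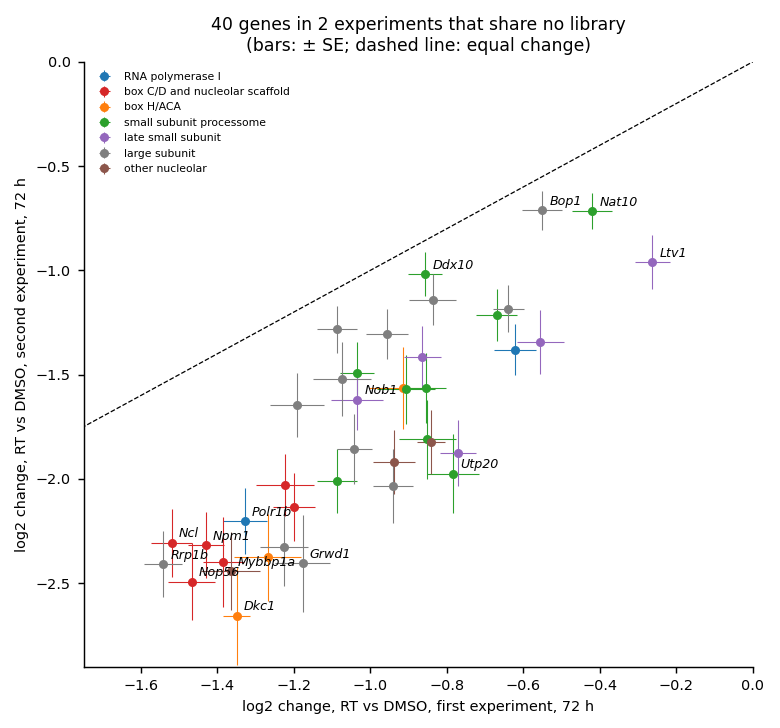
Log2 change under the combination at 72 h in the first (horizontal axis) and second (vertical axis) cell experiment for each of the 40 genes, coloured by role, with bars of ± 1 SE and a dashed line of equal change. All 40 points lie below the line, with Ltv1, Nat10 and Bop1 at the weak end and Dkc1, Nop56, Rrp1b and Ncl at the strong end.

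With ATRA at 24 h all 40 genes had a change below 0, with a median of -0.48. Of these, 31 were called lower, where 25.4% of all genes were called and 12.9% were called lower. With all libraries the lowest adjusted p were those of Bop1, Mybbp1a and Polr1a. Without both libraries that stood apart the lowest was that of Mybbp1a (adjusted p = 4.66e-11 in limma). Bop1 ranged from 699 to 802 with ATRA, with a median of 769, against 1067, 1002 and 1046 with DMSO, a change of -0.46 ± 0.09 (SE) (adjusted p = 0.000408). Mybbp1a ranged from 1367 to 2143 with a median of 1993, against 3208, 3151 and 3236 with DMSO, and changed by -0.76 ± 0.17 (adjusted p = 0.00272). Polr1a ranged from 647 to 936 with a median of 889, against 1167, 1129.9 and 1255, and changed by -0.48 ± 0.11 (adjusted p = 0.003). For these 3 genes all ATRA libraries lay below all DMSO libraries. The 9 genes that did not pass were Nop58, Npm1, Nhp2, Nop14, Ddx10, Bysl, Ltv1, Nop16 and Ebna1bp2, with changes of -0.12 (Ddx10) to -0.41 (Nhp2). Leaving out both libraries that stood apart gave 38 genes called and a median of -0.41. In that fit 32.5% of all genes were called and 17.2% were called lower. Leaving out single DMSO 24 h libraries gave 14 to 18 of the 40 called.

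At 72 h all 40 genes again had a change below 0 with ATRA, with a median of -0.43. Of these, 20 were called lower, where 16.7% of all genes were called, 7.15% lower and 9.58% higher. By role, 10 of the 12 large subunit genes were called, against 1 of 6 in the box C/D and scaffold group and 0 of 3 in the box H/ACA group, a difference that was not tested. Without both libraries that stood apart these counts were 11 of 12, 3 of 6 and 1 of 3. Wdr12 had 394, 582, 544, 596 and 594 normalised counts with ATRA and 716, 732 and 689 with DMSO, a change of -0.41 ± 0.11 (SE) (adjusted p = 0.0102). Pes1 had 812, 1189.5, 1313, 1198 and 1271 and 1542, 1605 and 1361, a change of -0.39 ± 0.11 (adjusted p = 0.0121). All ATRA libraries of both genes lay below all DMSO libraries. Rrs1 changed by -0.60 ± 0.17 (adjusted p = 0.0158), and it had 346, 719, 721, 751 and 726 with ATRA, where replicate 1 is the lowest and the other 4 lie close together below DMSO. Without both libraries that stood apart 26 genes were called, and the median was -0.24 in place of -0.43. In that fit 18.9% of all genes were called, 8.56% lower and 10.3% higher. The change of Dkc1, for example, was -0.58 ± 0.23 with all libraries and -0.30 ± 0.06 without them, and that of Nop56 -0.44 ± 0.18 and -0.20 ± 0.06. Without DMSO 72 h replicate 1 or replicate 2 the number called fell to 1, without replicate 3 it was 12, and with only the compared groups fitted it was 0.

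The ATRA effect at 72 h did not differ from that at 24 h for any of the 40 genes by limma at an adjusted p under 0.05, where 0.05% of all genes were called, 0.0143% higher and 0.0357% lower, and 0 of the 40 had an unadjusted p under 0.05. Without both libraries that stood apart 4 of the 40 were called, all with a weaker effect at 72 h, where 2.01% of all genes were called. edgeR on whole reads called 0 of the 40.

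Sequences upstream of the genes were read because the 40 genes moved together. RefSeq promoter windows of 300 bases (250 before and 50 after the start, GRCm38.p6) were matched by symbol for 35 of the 40 genes, in 38 windows, and Fbl, Npm1, Rrp12, Bop1 and Rrs1 had none. The E-box CACGTG, known as a binding motif of MYC and related factors, was in 23.7% of the 38 windows, against 7.15% of all 32851 windows and 9.68% of the 12878 windows of genes tested in the second cell experiment. Its place was uneven. In 8 of the 9 member windows the E-box began within the first 50 bases after the start, against 13.2% of the E-box windows of all genes. The genes were Grwd1, Ltv1, Mybbp1a, Pes1, Tsr1, Utp20, Utp4 and Wdr43, and in Nop2 it lay before the start. The E-box reads the same on both strands, and the other motifs were searched on both. The motif CCGGAAGT, known as a site of ETS factors, was found in 28.9% of the member windows, 3.89% of all and 7.88% of those tested. It began within the 50 bases before the start in 8 of 11 member windows, against 40.1% of all windows that hold it. Base composition differed less from that of tested genes, with a median of 58% G and C and 20.5 CpG per member window against 60.7% and 20. The GC box GGGCGG was in 63.2% of member windows and 61.7% of tested ones, and CCAAT, on either strand, in 23.7% and 38.1%. A TATA box TATAAA was in 7.89% of member windows and 7.34% of tested ones.

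The windows of the 4 E-box genes with the largest fall under the combination at 72 h are shown, with that of Dkc1, which fell most of all and holds neither motif. Each runs 5′ to 3′ along the gene's strand on GRCm38.p6, and capitals mark CACGTG and CCGGAAGT. The windows are those of Grwd1 (chr7:45830740-45831039, minus strand), Mybbp1a (chr11:72441077-72441376, plus strand), Wdr43 (chr17:71615965-71616264, plus strand), Utp20 (chr10:88826765-88827064, minus strand) and Dkc1 (chrX:75095604-75095903, plus strand).
Grwd1: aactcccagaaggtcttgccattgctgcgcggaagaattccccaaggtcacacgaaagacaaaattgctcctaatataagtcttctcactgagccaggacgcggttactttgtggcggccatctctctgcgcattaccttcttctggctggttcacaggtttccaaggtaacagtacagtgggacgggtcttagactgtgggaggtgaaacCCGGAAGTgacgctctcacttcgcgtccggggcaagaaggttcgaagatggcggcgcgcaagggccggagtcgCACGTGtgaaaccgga
Mybbp1a: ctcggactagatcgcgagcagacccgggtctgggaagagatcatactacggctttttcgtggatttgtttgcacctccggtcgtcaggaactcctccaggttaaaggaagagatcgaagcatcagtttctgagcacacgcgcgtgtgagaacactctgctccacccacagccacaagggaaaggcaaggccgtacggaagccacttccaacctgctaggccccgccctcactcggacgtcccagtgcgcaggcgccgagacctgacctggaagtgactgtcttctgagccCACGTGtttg
Wdr43: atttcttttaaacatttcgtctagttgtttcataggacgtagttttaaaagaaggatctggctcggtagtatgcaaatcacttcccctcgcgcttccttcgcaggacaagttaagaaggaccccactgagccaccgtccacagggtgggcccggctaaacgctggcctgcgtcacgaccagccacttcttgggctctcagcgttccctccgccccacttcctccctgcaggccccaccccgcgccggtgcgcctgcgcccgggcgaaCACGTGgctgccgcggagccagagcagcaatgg
Utp20: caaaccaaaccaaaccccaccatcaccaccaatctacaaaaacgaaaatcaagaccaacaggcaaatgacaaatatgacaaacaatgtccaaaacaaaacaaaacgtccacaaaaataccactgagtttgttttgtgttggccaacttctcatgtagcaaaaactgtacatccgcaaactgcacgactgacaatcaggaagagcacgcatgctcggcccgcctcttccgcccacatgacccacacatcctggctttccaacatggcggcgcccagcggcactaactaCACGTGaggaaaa
Dkc1: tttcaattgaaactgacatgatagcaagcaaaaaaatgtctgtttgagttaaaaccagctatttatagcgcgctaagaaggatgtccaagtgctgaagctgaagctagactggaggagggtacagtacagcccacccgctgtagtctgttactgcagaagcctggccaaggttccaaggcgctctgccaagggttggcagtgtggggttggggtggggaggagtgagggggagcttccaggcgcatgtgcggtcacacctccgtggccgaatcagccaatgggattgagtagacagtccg

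The E-box began 35 bases after the start in Grwd1, 41 in Mybbp1a, 18 in Wdr43 and 38 in Utp20, and the CCGGAAGT of Grwd1 began 39 bases before it, at -39. The changes of these genes at 72 h were -2.40 ± 0.23, -2.44 ± 0.19, -2.01 ± 0.15 and -1.98 ± 0.19. Genes with and without the motif had overlapping ranges. The 9 genes with an E-box had a median of -1.88 (from -2.44 to -0.96) at 72 h, and the 26 with a window that lacks it -1.63 (from -2.66 to -0.72). In the first experiment these medians were -1.03 and -0.996. For CCGGAAGT the medians at 72 h were -1.57 in 11 genes with it and -1.84 in 24 without.

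A second feature, held by some of the 40 genes, was the presence of snoRNA genes, whose products guide rRNA modification, inside the gene bodies. In the GENCODE M21 annotation 8 of the 40 genes (20%) held at least 1 snoRNA gene on the same strand, 23 in all, against 1.18% of 21951 protein-coding genes. These hosts were Nop56 with 5, Nop58 with 4, Ncl, Wdr43 and Gnl3 with 3 each, Tsr1 and Ppan with 2 each and Dkc1 with 1. The hosts had a median change of -2.22 (from -2.66 to -1.88) under the combination at 72 h and the other 32 genes -1.57 (from -2.44 to -0.71). At 24 h the medians were -1.29 and -1.15, and with trametinib alone in the first experiment -1.13 and -0.89. With ATRA at 24 h the medians lay the other way round, at -0.46 in the hosts and -0.48 in the others. These are descriptions, and the values are those of the host mRNA in poly-A libraries, not of the snoRNAs. An opposite-strand protein-coding gene began within 1000 bases upstream in 9 of the 40 genes (22.5%), against 6.79% of all. Both backgrounds cover all protein-coding genes, tested here or not, and shares among tested genes are not given.

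Other genes of the pathway, 114 in a list chosen with earlier results of these data known, went the same way in cells. Of these, 105 were called lower and 4 higher with trametinib, with a median of -0.57. Under the combination at 72 h in the second experiment 101 were called lower and 1 higher, with a median of -0.99. Ribosomal proteins were also lower, with 80 of 80 called under trametinib (median -0.84), 80 of 80 under the combination in the first experiment (median -1.02) and at 72 h in the second (median -1.33), and 55 of 80 at 24 h (median -0.49). In the second experiment the ribosomal protein genes thus had a median at 24 h of -0.49 where the 40 nucleolar genes had -1.22, and the interaction with time was called for 73 of 80 (median -0.86). Noc2l, a nucleolar large subunit factor, changed by -1.54 ± 0.14 (adjusted p = 1.12e-08) at 24 h and -2.30 ± 0.14 (adjusted p = 1.27e-12) at 72 h. Exceptions that rose were Riok3, a kinase of late small subunit assembly, at 0.43 ± 0.06 (adjusted p = 2.93e-07) at 72 h, and Ddx47, a nucleolar helicase, at 0.33 ± 0.04 (adjusted p = 8.26e-06) with trametinib. Of 19 RNA polymerase III genes 12 were called lower and 3 higher at 72 h, and Brf1, a subunit of its initiation factor, rose by 0.66 ± 0.10 (adjusted p = 1.56e-06).

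Myc, which encodes a factor known to drive these genes, fell with them in cells. Its change was -1.40 ± 0.06 (adjusted p = 3.23e-11) with trametinib, -1.46 ± 0.05 (adjusted p = 6.06e-12) with the combination in the first experiment, -2.20 ± 0.22 (adjusted p = 5.12e-08) at 24 h and -3.43 ± 0.22 (adjusted p = 5.28e-12) at 72 h in the second. With ATRA it was -0.45 ± 0.20 (adjusted p = 0.108) at 24 h and -0.32 ± 0.21 (adjusted p = 0.314) at 72 h, neither called. A list of the MYC network, with 11 genes tested in cells, was mixed. With trametinib 5 of them were called lower and 4 higher (median -0.11). Under the combination at 72 h in the second experiment 6 were called lower and 3 higher (median -0.23). The 14 ERK target genes were all called lower with trametinib (median -3.36) and with the combination at 24 h (median -2.57). All 20 proliferation genes were called lower with trametinib (median -1.26) and with the combination at 24 h (median -1.95) and 72 h (median -3.41), and 15 of 20 with ATRA at 24 h (median -0.53). With ATRA at 72 h none of the 20 was called, though all 20 changes were below 0 (median -0.32, 5 at an unadjusted p under 0.05 in limma). Of the 40 genes 20 were called there (median -0.43), a count of 1 to 29 without single libraries. The difference between these lists was not tested. The part of slower growth in the fall of the 40 genes was not tested.

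In tissue the first comparison asked how vehicle-treated tumours differed from bladder without BBN. Of the 40 genes 32 had a change above 0 and 8 below, with a median of 0.38. In all, 9 were called higher in tumours and none lower, where 26.4% of all 18762 genes were called and 15% were called higher. Of all genes called, 2816 of 4946 were higher, and 2386 of 5267 after quantile normalisation, which called 8 of the 40. The 9 were Bysl, Noc4l, Nop56, Fbl, Nop16, Ncl, Ddx21, Nhp2 and Bop1. For 15 of the 40 all tumour samples lay above all samples without BBN, a count with no share over all genes. Fbl had 2206, 2425 and 2119 normalised counts without BBN and 3597, 3787 and 3367 in tumours, a change of 0.67 ± 0.13 (SE) (adjusted p = 0.00427). Noc4l, a processome partner of Nop14, had 2311, 2438 and 2636 and 3910.2, 4868 and 3629, a change of 0.74 ± 0.15 (adjusted p = 0.00466). Nop16, a large subunit factor, had 2285, 2543 and 2608 and 3674, 4552 and 3663, a change of 0.67 ± 0.14 (adjusted p = 0.00609). In all 3 genes each tumour lay above each sample without BBN. The largest change was that of Bysl, a late small subunit factor, which had 1470.0, 1397 and 1143 without BBN and 2211, 3477 and 2794 in tumours, 1.06 ± 0.23 (adjusted p = 0.00658). Nop56 had 5844, 6145 and 5993 and 8709, 11986 and 8823, a change of 0.70 ± 0.18 (adjusted p = 0.0187).

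Not every role went this way. Polr1b had 2498, 2144 and 2228 normalised counts without BBN and 946, 2319 and 1424 in tumours, a change of -0.64 ± 0.27 that was not called, and tumour replicate 2 alone lay within the range of the samples without BBN. The differences of Utp20, -0.51 ± 0.25, and Heatr1, 0.02 ± 0.22, were not called either. Without vehicle replicate 2 the median of the 40 was 0.18 with 8 called higher and 1 lower, and without single samples the number called lay between 5 (no BBN replicate 2) and 10. Proliferation genes were called higher in 19 of 20, with a median of 2.86. Markers of other cells moved with the groups. Of 12 T and NK cell markers 11 were called higher in tumours, with summed values of 63132 to 117752 against 2292 to 6286 without BBN. Of 12 macrophage and dendritic markers 7 were called higher, with 356531 to 789573 against 131573 to 212143. No marker of these lists was at 0 in a whole group. Their part in the result was not tested.

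After 1 month of the combination 29 of the 40 genes had a change below 0 and 11 above, with a median of -0.26. In all, 3 were called lower than in vehicle tumours, where 23.8% of all genes were called, 13.7% lower and 10.1% higher. Of all genes called, 1889 of 4464 were higher, and 2695 of 4797 after quantile normalisation, which called 2 of the 40. Nop16 had 2207, 2114, 2438 and 2719 normalised counts in treated tumours, below all vehicle values given above, a change of -0.74 ± 0.13 (SE) (adjusted p = 0.00328). Noc4l had 2368, 2759, 3089 and 2898, a change of -0.57 ± 0.14 (adjusted p = 0.014). Nhp2 had 5829.9, 7324 and 6326 with vehicle and 4341, 4796, 4824 and 5283 with treatment, a change of -0.43 ± 0.13 (adjusted p = 0.0395). For Fbl, Rrp9 and Gnl3 the treated samples also lay below all vehicle samples without passing the test, and for Utp20 they lay above, at 0.56 ± 0.23. Dkc1 had 3696, 5319.9 and 2897 with vehicle and 2947, 2533, 2458 and 3999 with treatment, where the groups overlapped. Without vehicle replicate 2 the median was -0.11 and 3 genes were called, 1 of them higher, while the number called was 5 without vehicle replicate 3 and 7 without treated replicate 4. Ribosomal protein genes were called lower in 26 of 80, with a median of -0.35, Myc had a difference of -0.49 ± 0.18 (adjusted p = 0.0676), and no proliferation gene was called. In the same samples 11 of 12 T and NK cell markers were called lower, with summed values of 3918 to 22348 against 63132 to 117752 with vehicle. Macrophage and dendritic markers were called lower in 11 of 12, with 67749 to 174109 against 356531 to 789573. The part of these cells in the result was not tested.

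Treated tumours at 1 month were also set against the bladder samples without BBN that served in the tumour comparison. None of the 40 genes was called by limma, the median was 0.14, and 5 had an unadjusted p under 0.05, where 4.01% of all genes were called, 2.57% higher and 1.44% lower. Proliferation genes were called higher in 16 of 20, with a median of 3.37.

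**Figure D5:**
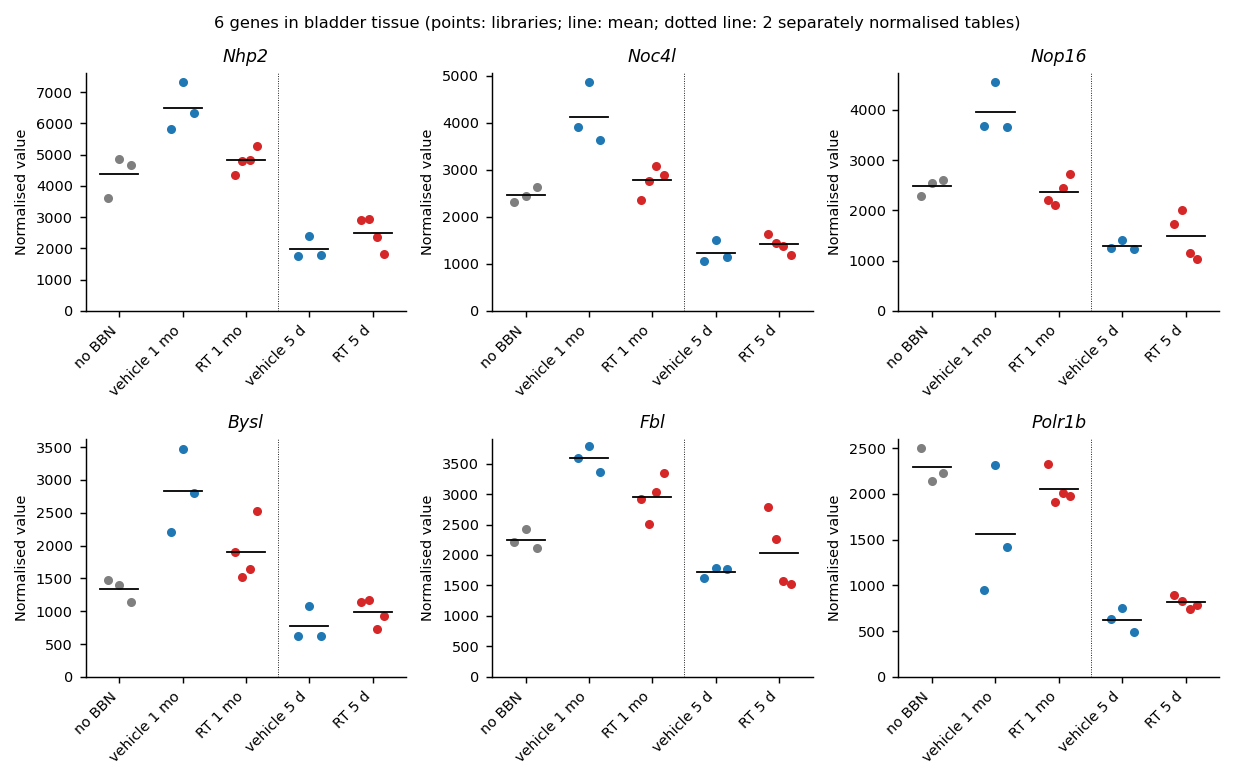
Normalised values of Nhp2, Noc4l, Nop16, Bysl, Fbl and Polr1b in each tissue sample (points) with the group mean (line), for bladder without BBN (grey), vehicle tumours (blue) and tumours given the combination (red); the dotted line separates 2 tables normalised separately, whose levels cannot be compared. At 1 month Nop16, Noc4l and Nhp2 are lower in treated than in vehicle tumours in every sample, and at 5 days the groups overlap in all 6 genes.

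At 5 days none of the 40 genes was called by limma, where 6.17% of all 16891 genes were called, 0.699% higher and 5.48% lower. Of all genes called, 118 of 1043 were higher, and 249 of 1034 after quantile normalisation. The change was above 0 for 39 of the 40, with a median of 0.28 against 0.04 for all genes tested, and 3 had an unadjusted p under 0.05. Dkc1 had 971, 1806 and 1336 normalised counts with vehicle and 2604, 2301, 1556 and 1653 with the combination, a change of 0.58 ± 0.27 (SE) (adjusted p = 0.257). Nop56 had 3221, 4191 and 3634 and 5953, 4772, 3972 and 3197, a change of 0.25 ± 0.22. Rrs1 had the largest change, 0.69 ± 0.31 (adjusted p = 0.245), from 900.3, 1541 and 972 with vehicle to 2496, 2192, 1582 and 1157 with treatment. Treated and vehicle samples overlapped in each of these 3 genes, and they did not overlap in Polr1a, Wdr12 and Mybbp1a. Npm1 had 5587, 7788 and 3866 with vehicle and 10774, 7535, 7540.5 and 6674 with treatment. Leaving out single samples gave medians of 0.16 to 0.42 and no call.

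In the same 5-day samples ERK target genes were called lower in 4 of 14, among them Egr1, an immediate early gene, at -3.85 ± 0.44 (adjusted p = 0.00406), and Ier3, at -3.11 ± 0.38 (adjusted p = 0.00523). Myc had a difference of 0.47 ± 0.32 (adjusted p = 0.44) and was not called. No proliferation gene was called, with a median of -0.15, and no ribosomal protein gene was called, with a median of 0.21. Neutrophil markers were called lower in 8 of 8, with summed values of 1400 to 9945 against 97390 to 229584 with vehicle, and macrophage and dendritic markers in 9 of 12. Summed urothelial markers were 185193 to 345397 with treatment and 80234 to 180578 with vehicle. The vehicle libraries were also deeper, and the part of depth and of these cells in the result was not tested.

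The effect at 1 month minus that at 5 days was negative for 36 of the 40 genes, with a median of -0.50. None was called by limma, 12 had an unadjusted p under 0.05, and 0.0542% of all genes were called in this interaction, 0.012% higher and 0.0421% lower. The effects in tissue and in cells lie in different tables and sets of libraries, and their difference was not tested.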

How the data were processed

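Poly-A RNA of 62 samples was sequenced. The deposited signal values are estimated counts divided by DESeq2 normalisation factors by the authors, as DESeq2 columns beside them show per the file headers, with no annotation or settings given; kallisto 0.44.0, bcl2fastq 2.19, DESeq2, GRCm38.p6 and mm10 are named in the submitters' processing notes, with no role stated. The tissue and first cell tables hold factors per gene and library, and depth was estimated from the value of 1 read. In the second cell experiment 100% of values above 0 came within 0.1 of a whole read. In the table of rosiglitazone alone, 1654 entries were realigned by their deposited mean, none of them of the 40 genes, and 26 entries named by dates were left out of the trametinib and combination tables.

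Values were taken as log2(value + 1), which understates changes of low genes. Genes that reached 10 in at least the number of libraries of the smallest group were tested by limma 3.58.1 (R 4.3.3), using its trend and robust options on all groups of each table, and adjusted by Benjamini-Hochberg over all genes. All 40 genes passed this filter in every comparison. edgeR 4.0.16 on whole reads was an alternative. The code was tested on simulated data. The 40 genes, the other lists, the panel of 11 genes given in every library and the rule for naming others (the 3 called genes of lowest adjusted p in each comparison and direction, Myc, and 2 per other list) were chosen with earlier results of these data known. The design assumed normalised values or counts, and limma was used because the files held normalised values. Pseudoalignment can divide reads between near-identical copies, and Npm1 has many processed pseudogenes, so its level is uncertain. Replicate numbers follow the order of the samples and pair nothing.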

Additional observations from a re-analysis of the deposited data

Results flagged for a closer look

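In the ATRA groups of the second cell experiment a single library lay far from the others for most genes followed in every library. Among 120 combinations of gene and group tested, where chance flags about 1 in 20 groups, 21 had such a library, and 19 of them were in ATRA groups. At 72 h the library labelled ATRA replicate 1 was the lowest for the mean of the 40 genes (9.18 on the log2 scale against 10.05 to 10.12 in the other 4), for Polr1b (8.35), Nop56 (10.82), Fbl (9.11), Npm1 (13.41), Dkc1 (9.03), Utp20 (9.10), Heatr1 (8.67), Nob1 (8.13), Rrs1 (8.44) and Mybbp1a (10.46). At 24 h ATRA replicate 6 was the lowest for the mean of the 40 genes (9.26), Polr1b (8.13), Nop56 (10.95), Dkc1 (8.96), Utp20 (9.01), Heatr1 (8.40), Rrs1 (8.50) and Mybbp1a (10.42). Npm1 was also low in rosiglitazone replicate 5 of the first experiment (16.94 against 17.07 to 17.10) and high in combination 24 h replicate 1 of the second (13.13 against 12.88 to 12.89).

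The effect of the combination differed between 72 h and 24 h by the interaction in limma for 18 of the 40 genes. Among the genes followed in every library these were Npm1 (-1.23 log2 units), Fbl (-0.93), Nop56 (-0.74), Rrs1 (-0.68) and Polr1b (-0.67). Without both ATRA libraries that stood apart 34 of the 40 were called, where 36.6% of all genes were called and 18.7% were called lower. Dkc1, Mybbp1a, Utp20, Nob1 and Heatr1 were then called as well, and of the genes followed in every library only Bop1 was not.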

How the results depend on the processing

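No change of direction was seen among called genes under the alternatives run. Under every alternative run for them, the calls under the combination kept 40 genes in both cell experiments and at both times, and those under trametinib 39 to 40. Quantile normalisation moved the median of all genes from -0.02 to -0.15 in tumours against no BBN, from 0.04 to 0.13 at 1 month and from 0.04 to 0.15 at 5 days, where the medians of the 40 genes became 0.29, -0.14 and 0.35. In the second experiment other counts moved. For DMSO at 72 h against 24 h, 5 were called, 3 with quantile normalisation, 1 with no filter, 36 with only the compared groups, 8 with edgeR and 37 with both ATRA libraries that stood apart left out. For ATRA at 72 h, 20 became 13 with no filter and 0 with only the compared groups. For the combination at 72 h minus 24 h, 18 became 11 with no filter, 34 with only the compared groups and 34 without both ATRA libraries, and for ATRA at 72 h minus 24 h, 0 became 4 without them. The medians of the 40 were the same with and without both ATRA libraries for DMSO over time (0.39) and for the combination at 72 h minus 24 h (-0.53). Neither comparison holds an ATRA library, so leaving both out does not change the log2 changes. It changes the estimate of spread and the genes tested (13960 in place of 14014), and the part of each in the counts was not tested. For the other counts the cause was not tested either, though a fit of fewer groups or libraries has its own estimate of spread. Leaving out single libraries gave 5 to 10 for tumours against no BBN, 2 to 7 at 1 month, 14 to 31 for ATRA at 24 h, 1 to 29 at 72 h, 0 to 2 for DMSO over time, 7 to 17 for the combination at 72 h minus 24 h and 0 to 1 for ATRA at 72 h minus 24 h; no such count moved for the combination in cells, and that for trametinib was 39 to 40. No paired analysis was possible because the labels give no replicate numbers. The shallowest library of the second experiment held 4.64 M reads, and the effect of depth on the calls was not tested.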
